A study of Mus musculus with 35 samples.

Results

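The genes described here are 10 genes of the ATF4 stress response and of serine synthesis, Atf4, Atf5, Ddit3, Trib3, Chac1, Sesn2, Asns, Psat1, Phgdh and Shmt2. They were chosen by name, with earlier results of these data known, from the 24421 genes that each count file lists. Their levels were read in 35 RNA-seq libraries of mouse embryonic fibroblasts (MEFs). The parent cells were immortalized and carried 1 floxed and 1 null allele of Nelfb, which encodes the B subunit of the negative elongation factor NELF. Of the libraries, 20 came from populations taken 7 days after infection with an adenovirus for Cre and GFP (Ad-Cre, which deletes the floxed allele) or for GFP (Ad-GFP). The populations held an empty vector (EV), wild-type NELFB (WT), MT194, which does not bind NELFA and NELFC, MT486, which does not bind NELFE, or DMT, which joins both mutations, with 2 replicates of each construct and virus. The other 15 libraries came from stable clones, isolated after an adenovirus for Cre had removed the floxed allele. These clones, 3 each, live on WT, MT194 or MT486 from a pLenti vector, or on WT(N48) or the C-terminal truncation Δ-C60 from a pBabe vector. The ectopic NELFB comes from a viral vector and not from the Nelfb locus, and each clone library is 1 clone, so that clone and construct are joined in it.

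ATF4 is a transcription factor whose mRNA is translated better when stress kinases phosphorylate the initiation factor eIF2, so that ATF4 protein can rise with no rise of Atf4 mRNA. It turns on genes for amino acid synthesis and transport, and, with the factors ATF5 and CHOP (the product of Ddit3), genes that end or intensify the response. Serine is made from a glycolytic intermediate by PHGDH, PSAT1 and PSPH, and SHMT2 passes its carbon to mitochondrial folate. ATF4 can drive these steps as well, which is why both groups of genes are often read together in fibroblasts and other cultured cells.

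ATF4 binds, with a C/EBP partner, to short elements such as TGATGNAAN and TGNTGCAAN, and the 10 promoters were searched for both on both strands. The windows are those of RefSeq on GRCm38.p6, from 250 bases before to 50 bases after each start, and all 10 genes had at least 1, with 2 starts for Atf5 and 2 for Psat1. The second element was added after the sequences had been seen, and a single site can match both. In each line below, the runs of 30 bases read 5′ to 3′ on the strand of the gene, the capitals mark the match, and in Chac1, Sesn2 and the second run of Trib3 the capitals hold the element's reverse complement. They are shown because these 5 promoters are the ones with a match.
Asns, chr6:7693213-7693242, minus strand: cccagccacaTGATGAAACttcccgcacgc
Trib3, chr2:152344074-152344103, minus strand: gggtcacagaTGGTGCAATcccgggccgct
Trib3, chr2:152344028-152344057, minus strand: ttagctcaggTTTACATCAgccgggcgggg
Chac1, chr2:119351038-119351067, plus strand: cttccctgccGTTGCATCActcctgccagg
Psat1, chr19:15925176-15925205, minus strand: cgcgggtggcTGGTGCAATcccctgctctc
Sesn2, chr4:132510656-132510685, minus strand: catgcaaaagTTTGCAGCAtctgtgcgagg

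The match in Asns began at base -23 from the start, and the 2 in Trib3 at -33 and 14. Those in Psat1, Chac1 and Sesn2 lay further upstream, at -136, -194 and -219. Of all 32851 promoter windows of this length, 3.95% held TGATGNAAN, 3.21% held TGNTGCAAN and 6.19% held either. No match was found in the windows of Atf4, Atf5 (both), Ddit3, Phgdh and Shmt2 or in the other window of Psat1, which says only that these letters are not there.

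Nelfb itself followed the design in the EV populations. With EV, Nelfb measured 46.1 and 39.5 CPM (read counts scaled to the size of the library) after Ad-GFP and 7.97 and 5.46 CPM after Ad-Cre, so that both deleted libraries lay far below both controls, and it fell by 2.67 on the log2 scale (SE 0.22, adjusted p = 2.53e-05, edgeR). With a construct, Nelfb after Ad-Cre was between 60.5 and 208 CPM. In DMT it was 2.79-fold higher than after Ad-GFP (log2 1.48, SE 0.20, adjusted p = 0.000555, edgeR). The log2 fold change was 0.71 in MT194, 0.51 in MT486 and -0.40 in WT (adjusted p = 0.0637, 0.234 and 0.822, edgeR). The cause of the higher values was not tested. Among the clones, the libraries labelled WT 1 and 3 held only 10.3 and 15.5 CPM of Nelfb, against 109 CPM in WT clone 2 and 56.3 to 247 CPM in the other clones. That is little for clones labelled as living on WT, and its cause was not tested. The fold changes named below against the libraries labelled WT are also given against WT clone 2 alone.

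The counts on genes ran from 17969149 to 29080007 per population library and from 18413284 to 27816723 per clone library. Every one of the 10 genes had at least 146 reads in every population and 66 in every clone. The labelled cell type was borne out by 7 of 8 fibroblast markers, which summed to 20500 to 44100 CPM in the populations and 7320 to 25500 CPM in the clones with Fn1 as the most abundant, while Thy1 was at or near 0. Epithelial, immune and endothelial markers summed to at most 1.29, 9.37 and 1.25 CPM in the populations and 2.02, 9.73 and 5.03 CPM in the clones. Of their defining genes, Krt8 was at 0 in 19, Adgre1 in 17, Epcam in 16, and Ptprc and Krt18 in 10 each of the 20 populations, whereas Cd68 (2.01 to 5.32 CPM), Csf1r (1.29 CPM or more), Cdh1 (0.12 to 1.19 CPM) and Kdr (0.10 to 0.69 CPM) were at 0 in none. The samples are bulk RNA, in which fewer cells of a type and less RNA per cell cannot be told apart.

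Per length of exon, Atf4 was the most abundant of the 10, with a mean RPKM (reads per kilobase of exon, scaled likewise) of 111 over the 20 populations. Atf5 (37.5), Psat1 (33.3), Shmt2 (31.0), Asns (24.3) and Ddit3 (20.4) followed, and then Phgdh (13.3), Chac1 (11.2), Trib3 (7.83) and Sesn2 (5.57). In the clones the order was led by Atf4 (152 RPKM), Psat1 (96.2) and Shmt2 (70.2). Reads across exon junctions were not placed by the aligner, so a gene with many short exons is understated beside Atf4, which has 1 exon block. In the populations Phgdh ranged least between libraries (1.77-fold from lowest to highest), Atf4, Psat1 and Shmt2 ranged 1.97- to 2.00-fold, and Trib3 ranged most (6.21-fold).

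The first question was what happened to these genes when Nelfb was deleted with nothing in its place. In EV cells, 5 of the 10 genes rose after Ad-Cre (Trib3, Asns, Sesn2, Shmt2 and Ddit3), against 5.84% of all genes tested, and none fell. A call needed an adjusted p below 0.05 together with a log2 fold change beyond 0.5 in either direction. The median log2 fold change of the 10 was 0.70, against 0.00 over all genes tested. Within each of the 2 experiments, all 10 genes were higher after Ad-Cre than after Ad-GFP, and 40.6% of all genes were higher in both. Both deleted libraries were above both controls in 9 of the 10, against 24.5% of all genes. With WT, MT486 and DMT, 8, 6 and 7 of the 10 were also higher after Ad-Cre in both experiments, against 35.6%, 36.6% and 38.4% of all genes.

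Cell type markers moved in the same comparison. Without pairing, 0 of the 7 fibroblast, 2 immune, 1 epithelial and 1 endothelial markers tested were called in EV, against 11.8% of all genes. With the experiments paired, Pdgfra (-1.17), Col3a1 (-0.92), Col1a1 (-0.77) and Col1a2 (-0.54) fell and Fn1 (0.64) rose among the fibroblast markers, and the immune markers Cd68 (0.64) and Csf1r (0.60) rose. The fibroblast markers summed to 21378 and 33346 CPM in EV-Cre and 21629 and 31194 CPM in EV-GFP, and the immune markers to 6.98 and 9.37 CPM against 4.28 and 6.49 CPM, with Ptprc and Adgre1 at or near 0. In DMT, Pdgfra and Col1a1 fell and Fn1 and Csf1r rose with pairing, in MT194 Fn1 rose and Pdgfra and the epithelial marker Cdh1 fell, in MT486 Pdgfra fell, and in WT none of these markers was called. With pairing, all genes called in either direction made up 25.4% in EV, 23.1% in DMT, 14.5% in MT194, 12.1% in MT486 and 3.09% in WT. The part of these marker shifts in the values of the 10 genes was not tested.

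Of the transcription factors, Atf4 mRNA was the least altered. It measured 366 and 249 CPM in EV-Cre and 308 and 219 CPM in EV-GFP. The groups overlapped, with experiment 1 above experiment 2 in both, and the log2 fold change of 0.22 (SE 0.26, adjusted p = 0.648) did not pass the test. Atf5, a related factor, stood at 84.7 and 81.3 CPM against 75.5 and 48.2 CPM, apart but not called (0.43, SE 0.29, adjusted p = 0.393).

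Ddit3, which encodes CHOP, read 57.7 and 46.1 CPM in EV-Cre and 36.9 and 28.6 CPM in EV-GFP. Both deleted libraries were above both controls, and the gene rose 1.59-fold (log2 0.67, SE 0.20, adjusted p = 0.0487). This call was at the edge of the threshold, and it was lost when any 1 of the 4 libraries was left out (adjusted p = 0.0655 to 0.294). Ddit3 (chr10:127290774-127296288) shares 68 bases with Mars on the other strand, and whether reads were assigned by strand is not given in the sources used here.

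Trib3, a pseudokinase that CHOP and ATF4 switch on and that restrains both, moved furthest. It had 36.3 and 46.9 CPM in EV-Cre and 11.8 and 7.56 CPM in EV-GFP. The lowest deleted library was thus above the highest control by a wide margin, and the rise was 4.29-fold (log2 2.10, SE 0.29, adjusted p = 0.000576). Trib3 (chr2:152337422-152344032, minus strand, 4 exon blocks) is the gene whose promoter carries separate matches of both elements in the lines above.

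Chac1, which degrades glutathione, was at 32.4 and 23.3 CPM in EV-Cre and 18.3 and 9.80 CPM in EV-GFP, higher in both deleted libraries. Its 1.98-fold difference was not called with free replicates (log2 0.99, SE 0.39, adjusted p = 0.118), and it was called when the experiments were paired (1.01, SE 0.15, adjusted p = 4.48e-05). Paired, 6 of the 10 genes rose, against 12.4% of all genes. Chac1 was also the gene in which the experiments differed most, by a median log2 of 0.56 over the 10 groups.

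Sesn2, a leucine sensor that holds back mTORC1, read 31.5 and 32.3 CPM in EV-Cre against 19.9 and 14.6 CPM in EV-GFP. It rose 1.85-fold (log2 0.89, SE 0.24, adjusted p = 0.0283), with the groups apart. The call was lost without EV-Cre replicate 1, EV-Cre replicate 2 or EV-GFP replicate 2 (adjusted p = 0.0889, 0.12 and 0.21). Sesn2 shares 6089 bases of its span with Gm12981 on the same strand.

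Asns, the enzyme that makes asparagine, had 106 and 107 CPM in EV-Cre and 55.9 and 47.6 CPM in EV-GFP. The deleted libraries lay close together and well above the controls, and the rise of 2.05-fold was the largest of those called after that of Trib3 (log2 1.04, SE 0.18, adjusted p = 0.00233). Asns lies at chr6:7675169-7693254 on the minus strand.

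Of the serine enzymes, Shmt2 was called and Psat1 and Phgdh were not, and the difference between them was not tested. Shmt2, the mitochondrial enzyme that splits serine into glycine and a one-carbon unit, had 123 and 132 CPM in EV-Cre and 74.1 and 78.6 CPM in EV-GFP. The groups were well apart, and Shmt2 rose 1.67-fold (log2 0.74, SE 0.14, adjusted p = 0.00417). Phgdh, which commits carbon to serine, read 33.7 and 29.6 CPM against 29.3 and 27.1 CPM, and Psat1, the next enzyme, 164 and 136 CPM against 129 and 110 CPM. For both, the deleted libraries lay just above the controls, and neither was called (Phgdh 0.17, SE 0.17, adjusted p = 0.608, and Psat1 0.33, SE 0.26, adjusted p = 0.481). Paired by experiment, Psat1 kept a log2 fold change of 0.32 (adjusted p = 0.0365), below the fold threshold.

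Fitted on the EV groups alone, where 1.8% of all genes were called, only Trib3 of the 10 was called. Asns had a log2 fold change of 1.05 (adjusted p = 0.0632) and Shmt2 of 0.75 (adjusted p = 0.128) there, close to those above.

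**Figure D1:**
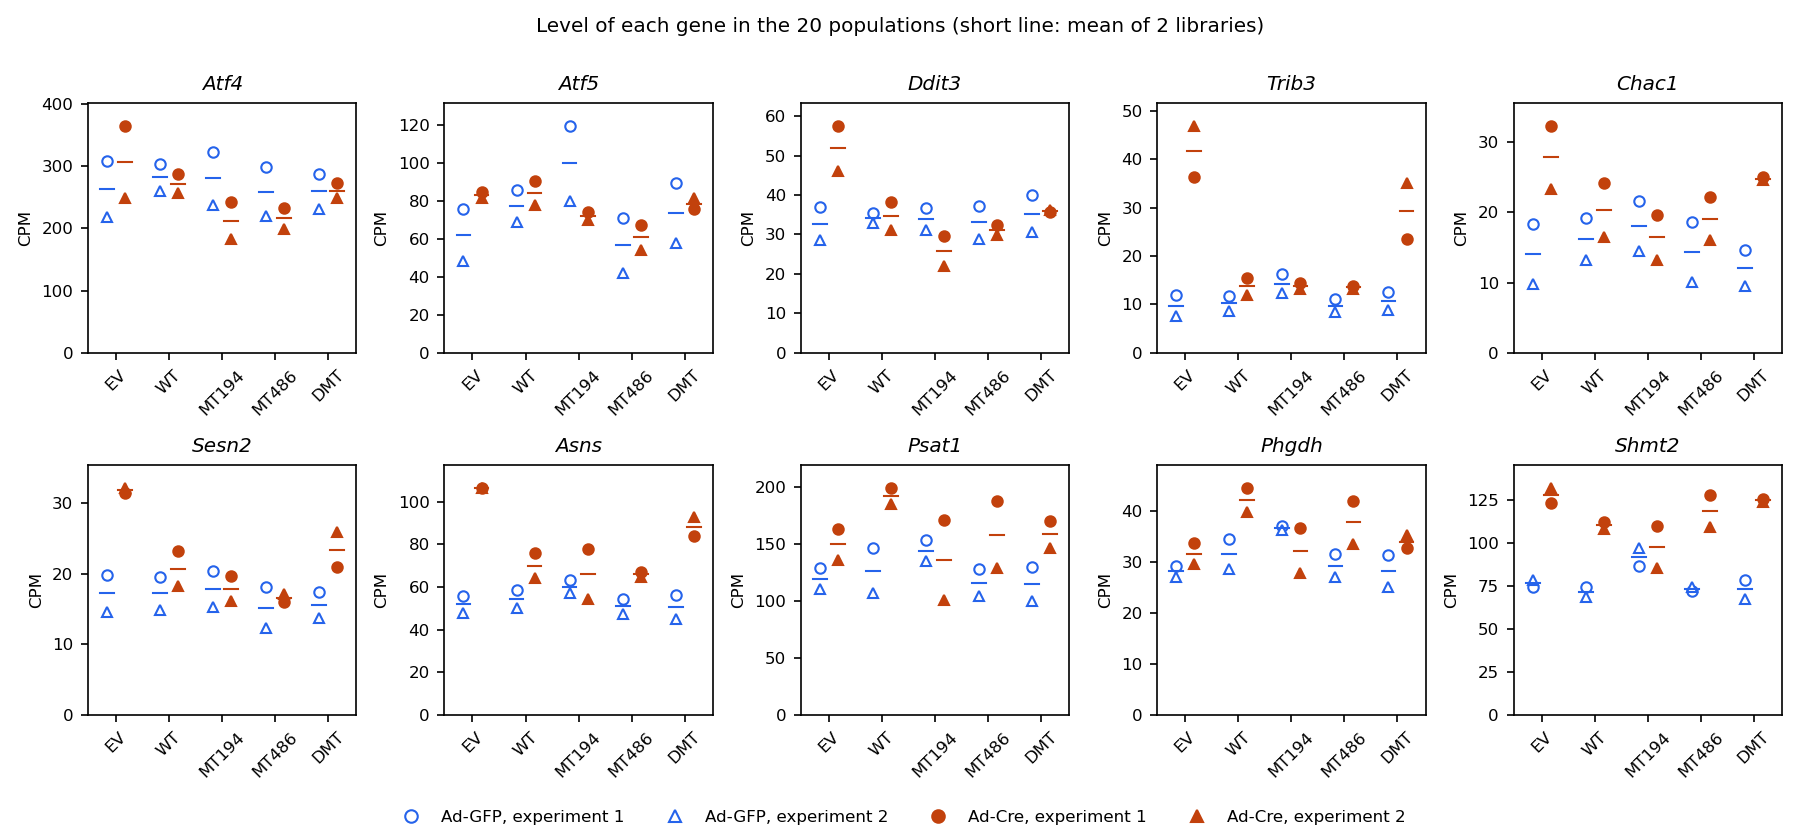
Level of each of the 10 genes (y axis, CPM, from 0) in the 20 populations by construct (x axis), with open blue points for Ad-GFP, filled orange points for Ad-Cre, circles for experiment 1, triangles for experiment 2 and a short line at the mean of the 2 libraries. Trib3, Asns and Sesn2 stand highest in EV with Ad-Cre, Shmt2 with Ad-Cre is above its own Ad-GFP libraries in every construct but MT194, and Atf4 shows the gap between the experiments in all 10 groups.

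The next question was how far each construct left these genes at their control level after deletion. With WT, 0 of the 10 were called by edgeR (0.0217% of all genes rose). At an unadjusted p under 0.05 there were 3 (Psat1, Phgdh and Shmt2), against 6.22% of all genes, and DESeq2 called Shmt2 (0.62, adjusted p = 0.00554), where it called 0.46% of all genes. The groups did not overlap in 5 of the 10, all higher after Ad-Cre, against 18.7%. Shmt2 stood at 112 and 108 CPM in WT-Cre and 74.0 and 68.7 CPM in WT-GFP, which do not overlap. Paired by experiment, Shmt2 (0.63, SE 0.11, adjusted p = 0.00376) and Psat1 (0.62, SE 0.12, adjusted p = 0.00687) rose, against 1.34% of all genes.

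Psat1 in WT cells read 200 and 185 CPM after Ad-Cre and 146 and 107 CPM after Ad-GFP. Phgdh stood at 44.5 and 39.7 CPM against 34.5 and 28.5 CPM (log2 0.42, SE 0.17, adjusted p = 0.765). For both enzymes WT-Cre had the highest mean of the 10 groups of populations. Trib3 in WT read 15.5 and 11.9 CPM against 11.8 and 8.64 CPM, a log2 fold change of 0.43 (SE 0.29, adjusted p = 0.955).

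With MT194, 0 of the 10 were called by edgeR with or without pairing or by DESeq2 without it, while these fits called 14.5%, 4.22% and 6.53% of all genes in either direction. At an unadjusted p under 0.05 there were 0, against 16.4% of all genes. This was the 1 construct in which more of the 10 genes were lower than higher after Ad-Cre (8 against 2). Among the 8 was Sesn2 at a log2 fold change of -0.000192, which turned positive with pairing, by DESeq2 and on the groups alone (0.0032, 0.016 and 0.0048). Of the 10, 5 were lower in both experiments, against 34.2% of all genes, and 0 were higher in both, against 34.8%. There were 2 lower without overlap, against 18% of all genes. Atf4 read 242 and 183 CPM in MT194-Cre and 323 and 238 CPM in MT194-GFP (log2 -0.40, SE 0.26, adjusted p = 0.515). Paired by experiment, Atf4 and Ddit3 had adjusted p of 0.00801 and 0.00951 at log2 fold changes of -0.40 each, short of the fold threshold. Shmt2 overlapped between MT194-Cre (110 and 85.3 CPM) and MT194-GFP (86.4 and 96.7 CPM), as it did in no other construct.

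With MT486, Shmt2 alone was called, against 1.14% of all genes that rose. It had 128 and 109 CPM in MT486-Cre and 71.8 and 74.4 CPM in MT486-GFP, apart in both libraries, and rose 1.62-fold (log2 0.70, SE 0.14, adjusted p = 0.0201). The call was lost without any 1 of the 4 libraries (adjusted p = 0.06 to 0.197) and on the groups alone (0.39, where 0.0381% of all genes were called), and it was kept with the experiments paired (adjusted p = 0.000202). Of the 10, 5 were higher without overlap, against 18% of all genes. Trib3 measured 13.7 and 13.2 CPM against 11.1 and 8.31 CPM and was not called (0.47, SE 0.29, adjusted p = 0.521).

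With DMT, 3 of the 10 rose, against 4.58% of all genes. Trib3 read 23.6 and 35.1 CPM in DMT-Cre and 12.6 and 8.82 CPM in DMT-GFP, a 2.74-fold rise (log2 1.46, SE 0.29, adjusted p = 0.00598) with the groups apart. Asns had 83.9 and 92.6 CPM against 56.0 and 44.9 CPM (log2 0.81, SE 0.18, adjusted p = 0.0115). Shmt2 had 125 and 124 CPM against 78.4 and 67.2 CPM (log2 0.78, SE 0.14, adjusted p = 0.00377). In each of these, both DMT-Cre libraries were above both DMT-GFP libraries, as they were in 7 of the 10 genes and 24% of all genes. DMT-GFP replicate 2 was the lower control library for these genes, and without it none of the 3 was called (adjusted p = 0.0615 to 0.136), and without DMT-Cre replicate 2 only Shmt2 was. On the DMT groups alone, where 3.63% of all genes were called, Trib3 was the 1 gene of the 10, with Asns at 0.82 and Shmt2 at 0.78 (adjusted p = 0.0761 and 0.0807).

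Paired by experiment, Chac1 (1.08, SE 0.15, adjusted p = 2.82e-05) and Sesn2 (0.61, SE 0.17, adjusted p = 0.00794) rose in DMT as well, 5 of 10 against 11.2% of all genes. Chac1 read 25.0 and 24.6 CPM in DMT-Cre against 14.7 and 9.58 CPM, and Sesn2 21.0 and 25.9 CPM against 17.4 and 13.8 CPM. Ddit3 did not follow them, at 35.7 and 36.3 CPM in DMT-Cre and 40.0 and 30.6 CPM in DMT-GFP (log2 0.03, SE 0.20, adjusted p = 0.959). DMT-Cre was also the group with the most Nelfb RNA among the populations (169 and 208 CPM). Atf4 had log2 fold changes of -0.05 in WT, -0.26 in MT486 and 0.01 in DMT, and Atf5 of 0.12, 0.10 and 0.09, with no call.

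**Figure D2:**
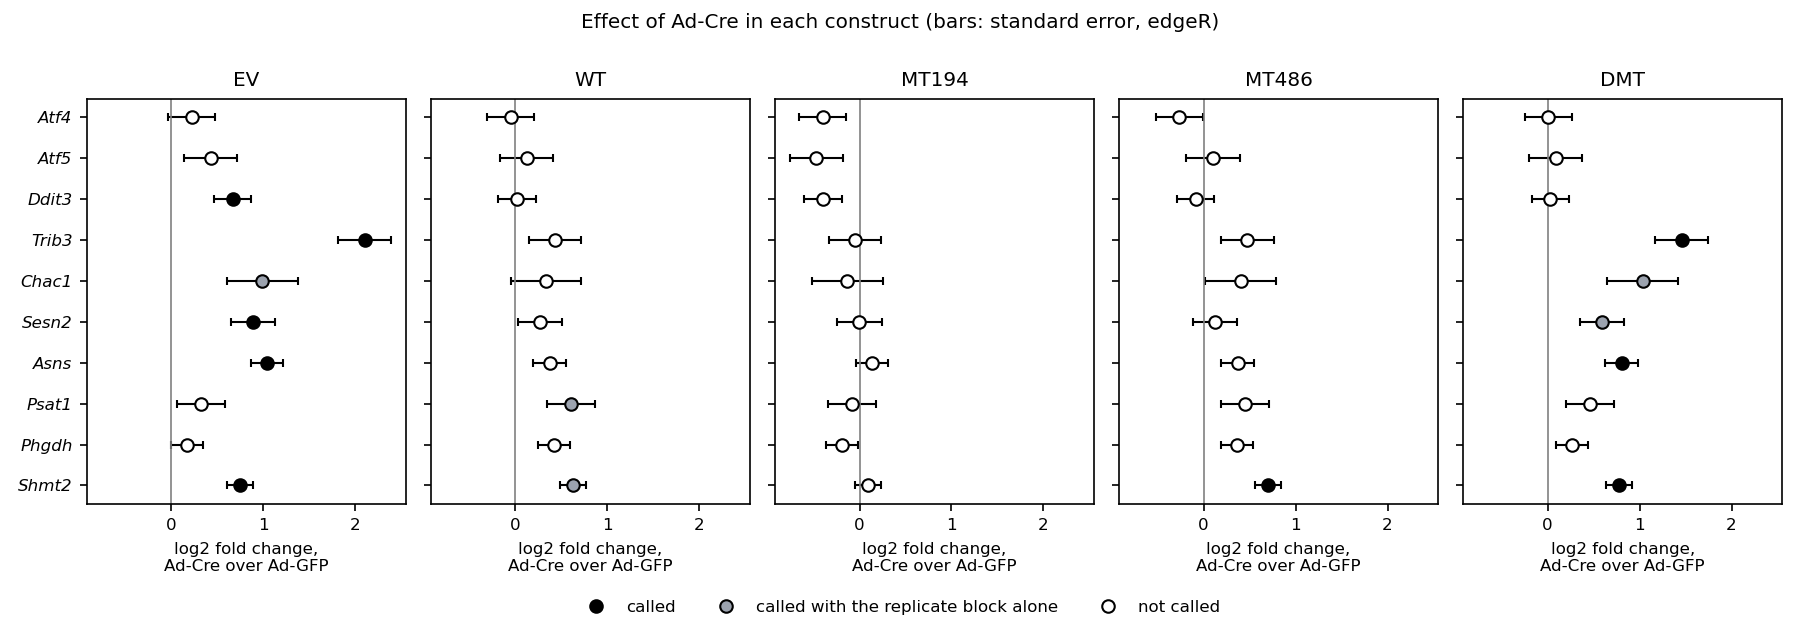
Log2 fold change of Ad-Cre over Ad-GFP (x axis) for each of the 10 genes (y axis) in each construct, with bars of 1 standard error from edgeR, black points for genes called, grey points for genes called only with the experiments paired and open points for the rest. EV and DMT hold 5 and 3 black points, MT486 holds 1 (Shmt2), and WT and MT194 hold none.

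The same question was asked at the level reached after deletion, with each construct set against EV, both with Ad-Cre. These comparisons share the 2 EV-Cre libraries with each other and with the EV effect above. Trib3 was lower with WT (log2 -1.60, SE 0.28, adjusted p = 0.00615), with MT194 (-1.60, SE 0.28, adjusted p = 0.0442) and with MT486 (-1.63, SE 0.29, adjusted p = 0.0303), where 3.48%, 0.145% and 0.181% of all genes were lower. It was the only 1 of the 10 called in any of them by edgeR without pairing. The calls for MT194 and MT486 were lost without any 1 of the 4 libraries (adjusted p = 0.103 to 0.33) and on the groups alone (0.758 and 0.333, where 0% and 0.00752% of all genes were called), and that for WT without EV-Cre replicate 2 or WT-Cre replicate 2 (0.0606 and 0.0838). With DMT, Trib3 lay 0.50 below EV-Cre on the log2 scale (SE 0.28, adjusted p = 1), and 0 of the 10 were called by edgeR or DESeq2, where edgeR called 0% of all genes lower. At an unadjusted p under 0.05 there was 1 (Ddit3), against 3.24% of all genes.

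With the experiments paired, more of the 10 were lower than in EV-Cre. They were 4 with WT (Ddit3, Trib3, Asns and Sesn2, against 11.9% of all genes), 6 with MT194 (these and Atf4 and Chac1, against 3.09%) and 5 with MT486 (the 4 and Chac1, against 4.16%). With DMT, Ddit3 alone was lower (-0.52, adjusted p = 0.0356, against 0.123%). Of the markers, Cd68 and Csf1r were lower than in EV-Cre with WT, MT194 and MT486 in this fit, and 4 fibroblast markers were higher with WT and 4 with MT194. DESeq2 without pairing called 2, 3 and 4 of the 10 with WT, MT194 and MT486, against 11%, 1.52% and 3.15% of all genes. The serine enzymes Psat1, Phgdh and Shmt2 were in none of these counts, and Psat1 and Phgdh in WT-Cre lay above EV-Cre without overlap (log2 0.36 and 0.41, adjusted p = 0.455 and 0.167), 2 of the 10 against 26.7% of all genes. Lower than EV-Cre without overlap were 5 with WT, 8 with MT194, 7 with MT486 and 4 with DMT. The shares over all genes were 27.2%, 16%, 17.2% and 12.3%.

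Whether the effect of Ad-Cre itself differed from that in EV was tested as an interaction. By edgeR without pairing, 0 of the 10 were called for WT, MT194, MT486 or DMT, and 0.681%, 0.00724%, 0.00724% and 0.00724% of all genes were. At an unadjusted p under 0.05 there were 3, 6, 4 and 1 of the 10, against 11.7%, 3.22%, 5.18% and 1.15% of all genes. For Trib3 the effect was smaller by 1.67 with WT (SE 0.40, adjusted p = 0.0984), by 2.15 with MT194 (SE 0.40, adjusted p = 0.238) and by 1.63 with MT486 (SE 0.40, adjusted p = 0.523) on the log2 scale. For DMT it was smaller by 0.64 (SE 0.40, adjusted p = 1).

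DESeq2 called this difference for Trib3 with WT, MT194 and MT486 (adjusted p = 0.00743, 0.00171 and 0.0482), where it called 3.17%, 0.14% and 0.395% of all genes. With the experiments paired, edgeR called it too, together with Ddit3 and Asns in all of these constructs, Chac1 in WT and MT194, and Shmt2 in MT194, where it read -0.65 (SE 0.15, adjusted p = 0.0438). That makes 4, 5 and 3 of the 10, all with the smaller effect in the construct, against 6.17%, 0.522% and 1.22% of all genes. For DMT, 0 of the 10 were called with pairing or by DESeq2, and each of these fits called 0.00724% of all genes.

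Other genes of the pathway were read from lists that were also chosen with earlier results of these data known. Of 13 genes for the kinases, phosphatases and exchange factor of eIF2, 2 rose in EV after Ad-Cre and none fell, beside the 5.84% of all genes that rose and 5.94% that fell. With pairing 3 rose and 1 fell, beside 12.4% and 13% of all genes, and these shares apply to each list below. The 2 were Ppp1r15a (1.54, SE 0.26, adjusted p = 0.00233), whose product GADD34 removes the phosphate from eIF2, and the exchange factor subunit Eif2b3 (0.85, SE 0.18, adjusted p = 0.00852). Both also rose in DMT (1.04 and 0.68). Ppp1r15a had 135 and 119 CPM in EV-Cre and 52.0 and 35.2 CPM in EV-GFP, higher in both experiments.

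Of 19 tested targets of ATF4 and CHOP beyond the 10, 3 rose in EV and 1 fell. Ero1l, an oxidase of the endoplasmic reticulum (ER), rose by 2.66 (SE 0.48, adjusted p = 0.00329), the stress factor Atf3 by 2.15 (SE 0.44, adjusted p = 0.00652) and the stress cytokine Gdf15 by 1.62 (SE 0.37, adjusted p = 0.0118). Gdf15 was near the floor, at 1.8 CPM in both EV-Cre libraries. Bbc3, which encodes the death factor PUMA, fell by 1.09 (SE 0.22, adjusted p = 0.00646). The same 3 rose (2.37, 2.36 and 2.29) and Bbc3 fell in DMT, so the movers included a cytokine and a death factor and not only genes of amino acid supply. The median of the list was 0.35 in EV, and with pairing 8 rose and 1 fell.

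Of 13 genes for serine, glycine, one-carbon and proline synthesis, 3 rose in EV and 2 fell, and with pairing 4 rose and 2 fell. Mthfd1l, a mitochondrial folate enzyme that acts downstream of Shmt2, rose by 1.02 (SE 0.17, adjusted p = 0.00151), from 25.9 and 27.3 CPM in EV-GFP to 54.2 and 53.7 CPM in EV-Cre. Psph, the last enzyme of serine synthesis, rose by 0.68 (SE 0.20, adjusted p = 0.0387), and Aldh18a1, of proline synthesis, by 0.59 (SE 0.11, adjusted p = 0.00387). Gldc, which cleaves glycine, fell by 1.85 (SE 0.30, adjusted p = 0.00158), and Aldh1l1, a cytosolic folate enzyme, fell by 2.82 (SE 0.49, adjusted p = 0.0025). The list thus moved in both directions, with a median of -0.03.

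Of 11 amino acid transporters, 3 rose and none fell. Slc7a11, the cystine importer, rose by 3.27 (SE 0.49, adjusted p = 0.000937), from 4.8 and 6.6 CPM to 46.1 and 63.9 CPM. The leucine transporter subunit Slc7a5 rose by 2.04 (SE 0.43, adjusted p = 0.00849) and the arginine transporter Slc7a1 2.84-fold (adjusted p = 0.0248). With pairing 6 rose and 3 fell. Of 21 cytosolic tRNA synthetases and their tRNA exporter, 4 rose (Wars 0.90, Cars 0.73, Mars 0.67 and Iars 0.59) and none fell, 19 had a positive log2 fold change, and with pairing 5 rose. Of the ER, 0 of 18 genes for ER chaperones and the unfolded protein response were called by edgeR in EV, with a median of -0.17, and with pairing 3 rose and 2 fell, and 0 of 7 genes of its mitochondrial counterpart were called with or without pairing. For these ER and mitochondrial lists the counts are near the shares over all genes.

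In the fit without pairing, DMT had as many genes up and down as EV in each of these lists but the transporters, where Slc7a5 and Slc7a11 alone rose, beside 4.58% of all genes higher and 5.34% lower. Paired, 28 of the 102 genes of these lists rose and 6 fell in DMT, beside 11.2% and 12% of all genes, and 29 rose and 9 fell in EV. Without pairing, WT had no call in any of them, MT194 had Eif2b3 (0.77, SE 0.18, adjusted p = 0.029) and Bbc3 (-1.14, SE 0.22, adjusted p = 0.00982), and MT486 had Aldh1l1 (-2.31, SE 0.47, adjusted p = 0.0219). Of all genes, 0.0217% were called higher and 0% lower in WT, 1.88% and 2.33% in MT194, and 1.14% and 1.28% in MT486. With pairing, 10 of the 102 rose and 6 fell in MT194, beside 7.08% and 7.43% of all genes, and 8 rose and 4 fell in MT486, beside 5.55% and 6.57%. Ero1l, Atf3 and Slc7a5 were among those that rose in both, and Gldc, Aldh1l1, Slc1a5 and Slc38a2 among those that fell in both. WT had 1 such call, Slc7a5, which rose, beside 1.34% of all genes that rose. Against EV, both with Ad-Cre, Slc7a11 was lower with WT (-3.14, SE 0.48, adjusted p = 0.00274) and MT194 (-2.76, SE 0.47, adjusted p = 0.0401). With WT, Ppp1r15a (-1.45), Ero1l (-2.58), Atf3 (-1.57), Dnajb9 (-1.58) and Mthfd1l (-0.60) were lower too, Bbc3, Gldc and Aldh1l1 were higher, and Gldc was also higher with MT486 (1.64, SE 0.30, adjusted p = 0.0379). All genes called higher made up 3.89% with WT and 0.181% with MT486, and those called lower 3.48% with WT and 0.145% with MT194. Paired, 20 of the 102 were lower and 7 higher with WT (11.9% and 11.1% of all genes). They were 13 and 4 with MT194 (3.09% and 3.12%) and 16 and 4 with MT486 (4.16% and 4.8%). With DMT they were 0 and 0, where 17 of all 13805 genes were lower (0.123%) and 31 higher. That comparison called too few genes of any kind for its counts to be read.

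**Figure D3:**
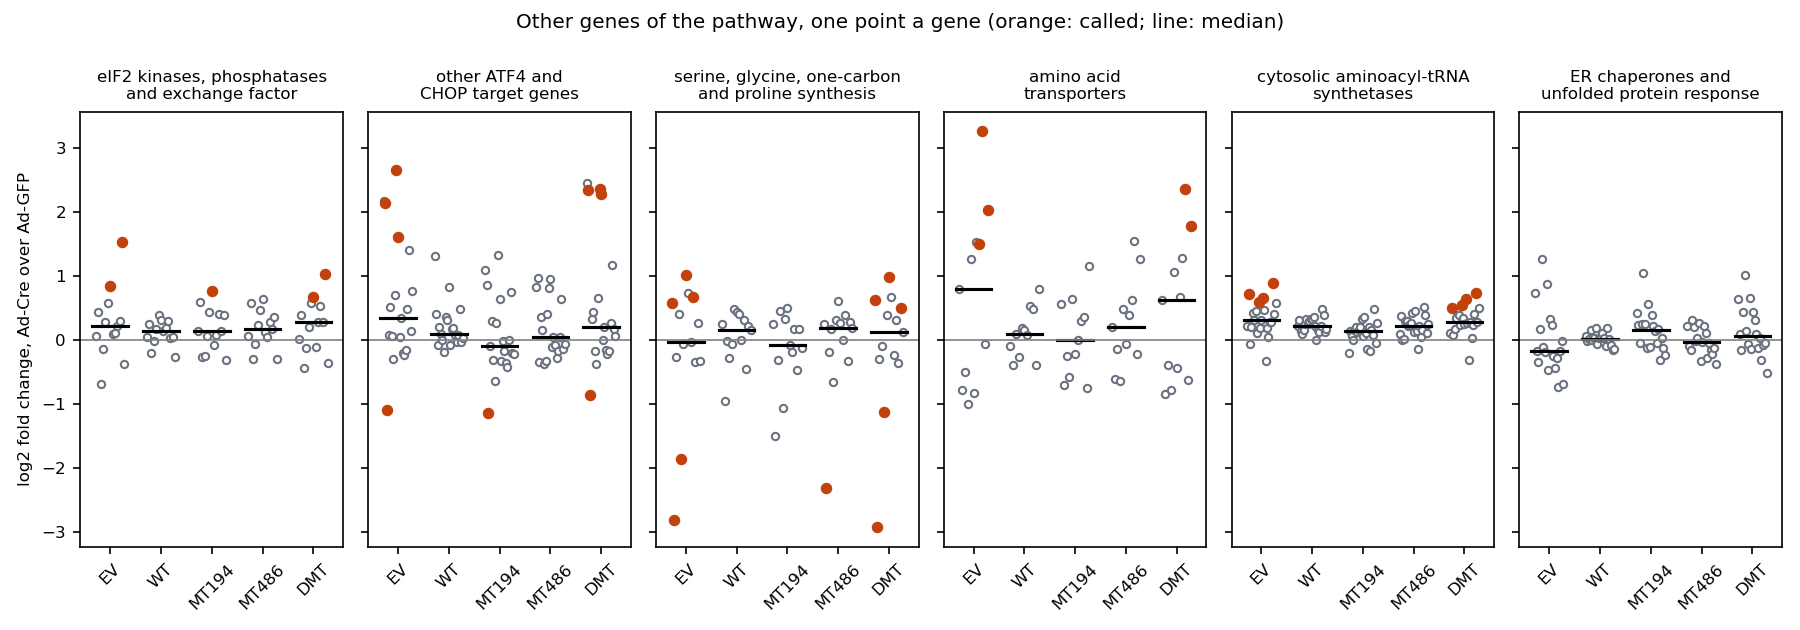
Log2 fold change of Ad-Cre over Ad-GFP (y axis) for the other genes of the pathway in each construct (x axis), 1 panel a list and 1 point a gene, with orange points for genes called by edgeR without pairing and a black line at the median. Of the 6 lists drawn, all but the ER chaperones have orange points in EV and DMT, with Slc7a11 highest at 3.27 in EV, and the tRNA synthetases sit in a narrow band with medians of 0.15 to 0.32 over the 5 constructs.

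Across the 20 populations, which share batches and control groups, the 10 genes split by how they varied together. Over their 45 pairs, Pearson's r of log2 CPM had a median of 0.619 and was positive in 44. Trib3, Asns and Sesn2 formed the tightest set, with r of 0.95 for Trib3 and Asns and 0.91 for Sesn2 with either. Psat1 and Phgdh were joined at 0.91. Atf4 and Shmt2 had an r of -0.00291 here, against 0.6 over the 15 clones, and Atf4 was nearest to Ddit3 (0.82). These values also hold the shift of experiment 1 over experiment 2. Its median log2 was 0.36 for Atf4, 0.31 for Ddit3 and 0.03 for Shmt2, and its part in r was not tested.

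Among the 9439 genes averaging 10 CPM or more, the 3 most like each of the 10 were named over the same 20 libraries. Trib3 was most like Smox (0.949), Asns and Dusp4, and Asns most like Txnrd1 (0.961), Ifrd1 and Klhl21. Sesn2 was most like Gtf3c4 (0.933), Xpot and Trib3, and Chac1 most like Lrrfip2 (0.956), Mthfd2 and Ywhag. Shmt2 was most like Mthfd1l (0.929), Bcat1 and Ruvbl2, Phgdh most like Psat1 (0.912), Tuba1b and Bax, and Psat1 most like Lgals3 (0.933), Ppp1r14b and Plrg1. Atf4 and Ddit3 shared Gclm among their nearest (0.936 and 0.886), with Pnrc1 and Eif1 for Atf4 and Ikbkg and Traf6 for Ddit3, and Atf5 was most like Akt1s1 (0.892), Pgls and Mex3d.

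**Figure D4:**
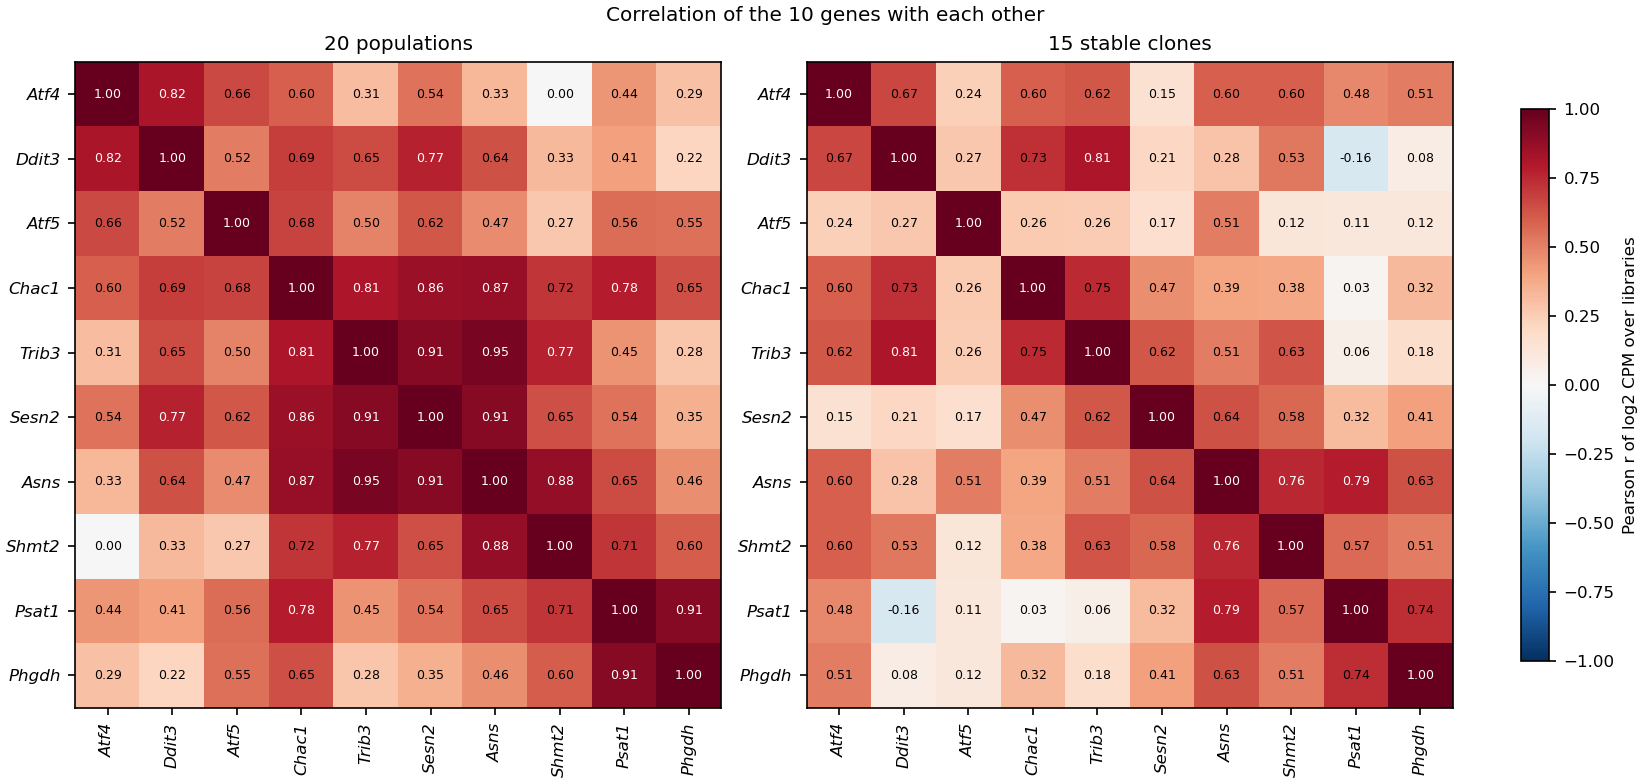
Pearson's r of log2 CPM between each pair of the 10 genes (x and y axes) over the 20 populations (left) and the 15 stable clones (right), red for positive and blue for negative. The populations show a dark block of Chac1, Trib3, Sesn2 and Asns and a pair of Psat1 and Phgdh, and in the clones Trib3 is nearest to Ddit3 (0.81) and Psat1 to Asns (0.79).

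The stable clones put the same question after long growth without endogenous Nelfb. Here 0 of the 10 were called by edgeR in MT194 or MT486 against WT, or in Δ-C60 against WT(N48), where 2.9%, 0% and 0% of all genes were called. Those were 384, 0 and 0 genes, and with 1 clone left out 0 to 346, 0 to 14 and 0 to 313. With all clones, 3, 4 and 2 of the 10 had an unadjusted p under 0.05 by edgeR, against 21.1%, 8.89% and 11.6% of all genes. DESeq2 called 2, 0 and 0 of the 10, against 9.25%, 1.19% and 1.82% of all genes. Clones of 1 group often differed more than the groups did. Trib3, for example, read 14.8, 22.8 and 7.50 CPM in the WT(N48) clones and 20.3, 27.0 and 5.68 CPM in the Δ-C60 clones.

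Psat1 and Phgdh had their lowest group means in the MT194 clones. Psat1 had 187, 109 and 361 CPM there against 553, 444 and 512 CPM in the libraries labelled WT, so that all MT194 clones were below all WT clones, as in 3 of the 10 genes and 16.9% of all genes (log2 -1.20, SE 0.33, adjusted p = 0.0639). Phgdh had 39.0, 31.1 and 67.7 CPM against 74.9, 103 and 84.3 CPM, also without overlap (-0.93, SE 0.28, adjusted p = 0.0827). DESeq2 called both (adjusted p = 0.00864 and 0.0268), and so did edgeR without MT194 clone 3, the highest of the group (Psat1 -1.78, adjusted p = 0.0179, and Phgdh -1.33, adjusted p = 0.0319). Neither was called without any other 1 of the 6 clones. Against WT clone 2 alone, with WT clones 1 and 3 left out, the values for Psat1 and Phgdh were -1.04 and -1.18 (adjusted p = 0.424 and 0.302), and 3 of the 10 genes were higher and 3 lower in all MT194 clones, against 32.3% and 31.1% of all genes.

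Atf4 in the clones was in the order WT(N48) (519 ± 88.4 CPM, SD, n = 3), MT486 (378 ± 20.8), Δ-C60 (360 ± 67.1), the libraries labelled WT (304 ± 33.3) and MT194 (233 ± 6.10). MT486 and Δ-C60 did not differ beyond their spread, nor did Δ-C60 and WT, while WT(N48) lay above MT486 in all clones. Δ-C60 was lower than WT(N48) without overlap (-0.53, SE 0.17, adjusted p = 0.279), the 1 gene of the 10 apart in that comparison, against 5.63% of all genes lower in this way. MT194 was lower than WT without overlap (-0.39, SE 0.17, adjusted p = 0.214), and set against the WT(N48) clones in another vector it was called (-1.16, adjusted p = 0.00608), 1 of the 10 against 5.82% of all genes. Against WT clone 2 alone, Atf4 in MT194 had -0.41 (adjusted p = 0.554). The MT194 clones agreed closely in Atf4 (226, 234 and 239 CPM) while their Ddit3 ran from 10.1 to 39.6 CPM.

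Ddit3, Trib3 and Chac1 did not overlap between the libraries labelled WT and the MT486 clones, although none was called in the fit of all clones. Ddit3 read 10.7, 10.5 and 11.4 CPM in WT and 26.8, 31.2 and 22.5 CPM in MT486, without overlap (1.30, SE 0.46, adjusted p = 0.381), and it was called on these groups alone (1.33, adjusted p = 0.0317, 1 of the 10 against 0.553% of all genes). Trib3 read 9.22, 3.86 and 3.35 CPM against 18.1, 17.5 and 24.1 CPM (1.86, SE 0.60, adjusted p = 0.333), and Chac1 11.2, 12.4 and 15.4 CPM against 18.6, 23.8 and 30.2 CPM (0.89, SE 0.31, adjusted p = 0.357). In each of the 3 genes every MT486 clone was above every WT clone, and 5 of the 10 genes (these, Atf4 and Sesn2) were apart in this way, against 12.6% of all genes. Against WT clone 2 alone, Ddit3 had 1.35, Trib3 2.37 and Chac1 0.96 (adjusted p = 0.905, 0.892 and 0.893), and 7 of the 10 genes were higher and 1 lower in all 3 MT486 clones, against 30.5% and 32.8% of all genes. Set against the WT(N48) clones of the other vector, the 5 genes that were apart from WT did not share 1 direction. Ddit3 had -0.62, Chac1 -0.04 and Atf4 -0.46 there, and Trib3 0.41 and Sesn2 0.73 (adjusted p = 0.556, 0.965, 0.221, 0.785 and 0.248), and 0 of the 10 were called, against 0.287% of all genes.

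Of the Δ-C60 clones, Sesn2 was 32.7, 33.1 and 20.7 CPM against 16.9, 21.8 and 9.74 CPM in WT(N48) (0.84, SE 0.29, adjusted p = 0.294), with the groups overlapping in 1 clone. Set against the WT clones of the other vector, Chac1 was higher in Δ-C60 (1.16, adjusted p = 0.0376), 1 of the 10 against 8.33% of all genes, and against WT clone 2 alone it had 1.20 (adjusted p = 0.374). Over the 15 clones the median r of the 10 genes was 0.481 over their 45 pairs. In the populations r also holds the shift between the 2 experiments, so the medians are not alike, and their difference was not tested.

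**Figure D5:**
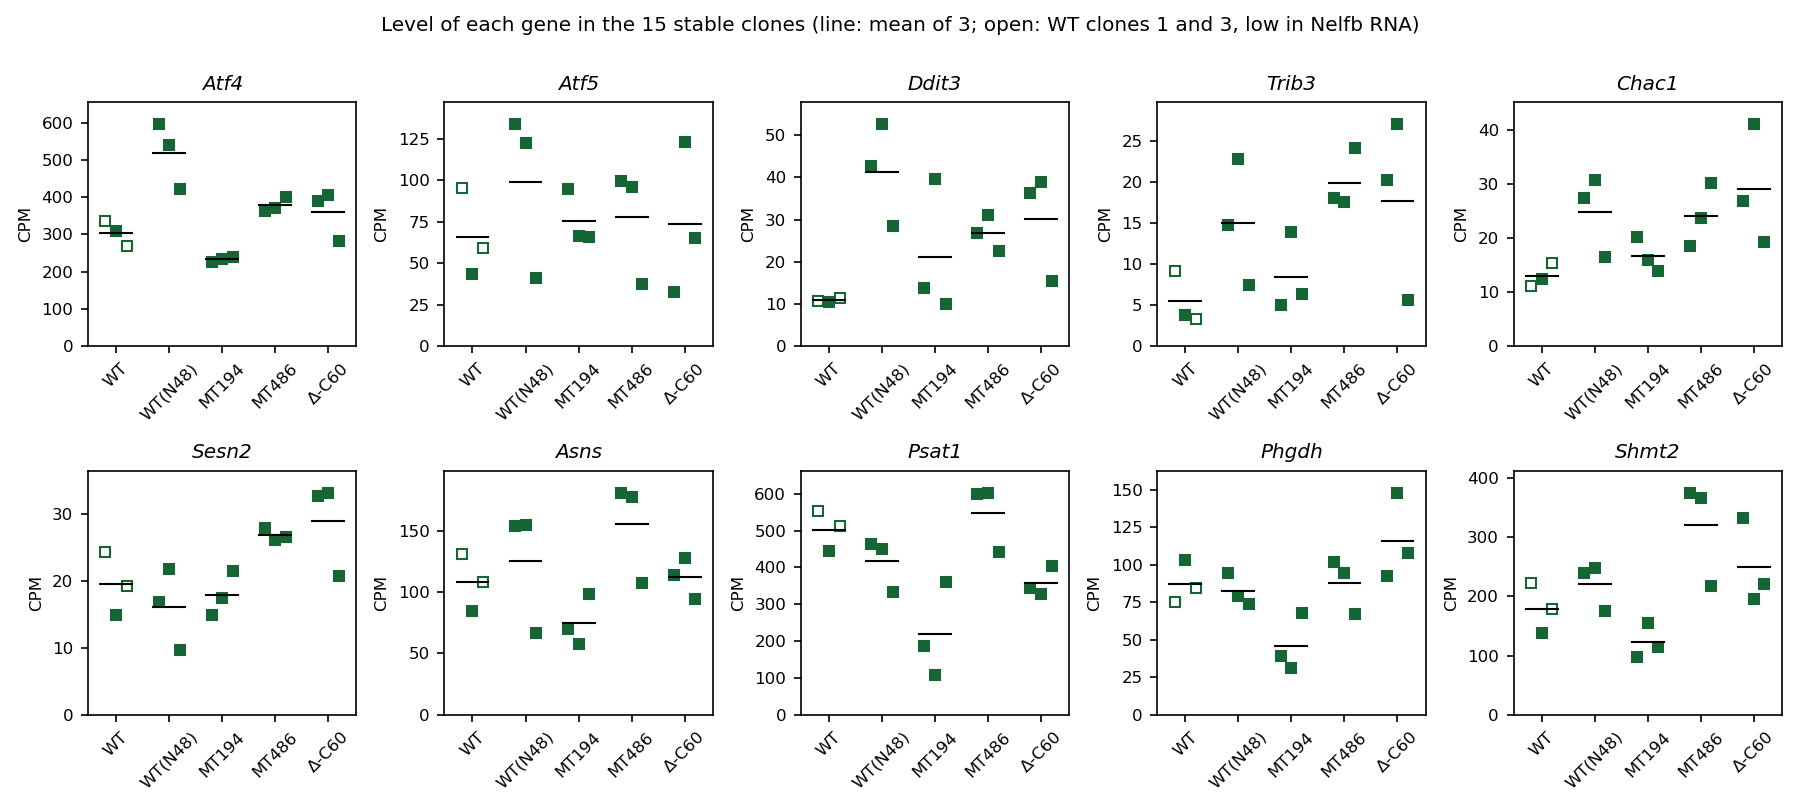
Level of each of the 10 genes (y axis, CPM, from 0) in the 15 stable clones by construct (x axis), 1 square a clone and a line at the mean of 3, with open squares for WT clones 1 and 3, which are low in Nelfb RNA. Psat1 and Phgdh are lowest in MT194, Ddit3 lies between 10.5 and 11.4 CPM in the 3 WT clones, and the clones of 1 construct often span the range of the others.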

How the data were processed

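Libraries were made with a stranded TruSeq mRNA kit and sequenced as single reads of 50 bases. The authors aligned reads to mm10 with bowtie2, left out alignments with a mapping quality under 30 and counted reads per gene with HTSeq, and the deposited values are raw counts. HTSeq's 5 summary lines were left out of library sizes and tests. Reads on no gene were 11.7% to 21.3% of each population library and 9.14% to 12% of each clone library. The authors tested with DESeq2.

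From the counts, edgeR 4.0.16 in R 4.3.3 was used with filterByExpr (13805 genes in the populations, 13223 in the clones), TMM normalization and a robust quasi-likelihood fit of 1 mean per group, separately in both sets, with Benjamini-Hochberg adjustment over all genes tested. SE is the absolute log2 fold change divided by the square root of F. CPM uses TMM, and RPKM the union exon length of GENCODE on GRCm38, which is mm10. Alternatives were DESeq2 1.42.0, its size factors in edgeR, no filter, other fold thresholds, the compared groups alone, the replicate number as a block, the other wild-type clones, and each library left out. Figures used matplotlib 3.10.9.

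In the populations the study describes 2 independent experiments. Same-numbered libraries deviated together in 45 of 45 pairs of groups (r 0.42 to 0.73). The main fit left this pairing out, and libraries were taken as paired only where the text says so. In the clones 3 of 30 pairs passed 0.1, and the number is only a name. P-values of the main fit rest on the spread between replicates within groups, pooled over all groups of the populations or of the clones. With pairing, the shift between the 2 experiments is taken out of that spread. On the groups alone, the spread comes from the compared groups only. In each case the p-values speak only for these 2 experiments, or for these 3 clones of a group.

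Members, lists and tests were chosen with earlier results of these data known. Genes named are the 10, Nelfb and, from each list, the genes called in an effect of Ad-Cre or against EV, at most 3 in each direction, and the 3 genes most like each member. Iars and genes named only for the paired fit fall outside this rule and were chosen after their values were seen.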

Additional observations from a re-analysis of the deposited data

How the results depend on the processing

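Of 1720 values of the 10 genes under an alternative, 1635 kept their side of the threshold, 38 lost a call, 47 gained one and 0 changed the direction of a called value. The numbers of the 10 genes called moved as follows. With the replicate number as a block, which pairs the experiments, they became 6 for the Ad-Cre effect in EV, 2 in WT, 5 in DMT, 4, 6, 5 and 1 for WT, MT194, MT486 and DMT against EV, and 4, 5 and 3 for the interactions of WT, MT194 and MT486, and the block changed no count in the clones. With DESeq2 they became 1 for WT, 2, 3 and 4 for WT, MT194 and MT486 against EV, 1 for each of these interactions, and 2 for the MT194 clones. Over an absolute log2 fold change of 1 they became 2 in EV, 1 in DMT and 0 in MT486 (900, 733 and 201 of all genes, from 1626, 1369 and 334). On the groups alone they became 1 in EV, 1 in DMT, 0 in MT486, 0 for MT194 and MT486 against EV, and 1 for the MT486 clones (239, 489, 5, 0, 1 and 69 of all genes). With no filter on low counts MT486 had 0 (246 of all genes). Against the other wild-type clones the Δ-C60 and MT194 clones had 1 each. Leaving out 1 population library lowered the number of the 10 called in EV and MT486, and for MT194 and MT486 against EV. In DMT and for WT against EV, some of these fits lowered it. Calls over all genes fell in each of these as well, and with 1 library left in a group it was assumed to vary like the others. Leaving out 1 clone gave 0 to 2 for the MT194 clones (0 to 346 of all genes, from 384). Without WT clones 1 and 3, an alternative chosen after the data were seen, 1 clone was left in the WT group. Few genes of any kind were called in these fits of the MT194, MT486 and Δ-C60 clones, so the lack of calls among the 10 says nothing about them. The cause of these moves was not tested, beyond the fewer samples of some alternatives.

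What depth limits was not tested. Another scaling moved no median over all genes by more than 0.1 on the log2 scale. Overlaps of Atf5 with Nup62 and Il4i1, of Shmt2 with Ndufa4l2 and of Psat1 with the pseudogene Gm3329 (571 and 272, 32 and 556 bases) remain in the gene models, and their part in the counts was not tested.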
